A study of Homo sapiens with 6 samples.

Results

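BR100 is a bortezomib-resistant clone of the human colon adenocarcinoma line HT-29, and its gene expression was compared here with that of wild type HT-29. The comparison was defined by the cell variant in the labels and took in 4 of the 6 arrays of the series. Each variant had 1 array labelled with the 3' IVT Express kit, which took 100 ng of total RNA, and 1 labelled with the One-Cycle kit, which took 3 ug. The other pair of arrays came from BR200, a further resistant clone, which was used for the spread and for a direct comparison. According to the labels, resistance was raised by growing cells in bortezomib that was increased from 20 to 300 nM over 7 months. Clones were then isolated by limiting dilution, done 2 times under 100 or 300 nM of the drug during 4 further months. The labels carry this text on all 6 samples, wild type included. They do not give the dose at which BR200 was cloned, or whether drug was in the medium at harvest. BR100 is 1 clone, so what differs from wild type cannot be told apart from what differed in the founder cell of that clone. The arrays of a variant are not said to come from separate cultures, so every p-value below measures the spread between arrays only, which may be technical.

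Bortezomib is a boronic acid drug that blocks the catalytic beta 5 subunit of the proteasome, the barrel-shaped protease that degrades ubiquitin-tagged proteins. In most cells its inhibition leads to the accumulation of misfolded proteins, induces proteasome subunit, heat shock and amino acid response genes, and stops the NF-kappaB inhibitor from being degraded. Resistant lines are studied to find which of these programmes differ once cells can grow in the drug. The genes are described below by role, from protein turnover to the cell cycle, metabolism, signalling and the cell surface.

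Of the 54675 probe sets, 41097 named 1 gene alone, and they gave 19775 genes with 1 value each. The 10370 genes that reached a log2 level of 4 on at least 2 of the 6 arrays were tested, and 9405 were set aside. A level is the deposited log2 value of a gene, a change is the BR100 mean minus the wild type mean, and 1 log2 unit is 2-fold. Where both arrays of a variant lie under 4, the gene counts as near background in that variant, and its change is then given as at least N-fold with 4 in place of the lower level. Array pairs of 1 variant correlated at 0.983 to 0.985 over genes, and BR100 arrays correlated with wild type arrays at 0.878 to 0.895. Between 10063 and 10193 genes reached 4 per array. The gap between the 3' and 5' control probe sets of ACTB, which widens as RNA or its copies get shorter, was 4.22 and 3.00 in wild type and 3.03 and 1.86 in BR100 (log2, Express array first). The part of this gap in the results was not tested. Of 16 colon epithelial markers with a probe set, 11 were tested and 5 were under 4 on all arrays, among them CDX1 and CDX2, which define intestinal epithelium. EPCAM stood at 14.82 and 14.97 in wild type and 14.69 and 14.63 in BR100, and KRT18 at 15.39 and 15.36 and at 15.30 and 15.42. Of fibroblast, blood cell and endothelial markers, 9 of 12, 9 of 11 and 7 of 8 were under 4 on all 6 arrays. Summed fibroblast marker levels (log2) were 33.8 and 34.8 in wild type and 33.6 and 34.3 in BR100. With 9 of 12 under 4, this sum had little room to move. Within it ACTA2 went from 3.82 and 4.69 to 4.88 and 5.67 in BR100. TAGLN went from 4.02 and 4.16 to 3.03 and 2.95, and COL1A1 from 5.81 and 5.80 to 5.36 and 5.59. Among blood cell markers LYZ stood at 14.34 and 14.55 in wild type and 14.39 and 14.84 in BR100. CD14 stood at 5.59 and 5.33 and at 5.82 and 5.64. The part of these markers in the results was not tested.

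Of the 10370 tested genes, 7102 differed between BR100 and wild type. In limma with labelling kit as a block, 3805 genes (36.7%) were higher and 3297 genes (31.8%) were lower in BR100 at a Benjamini-Hochberg adjusted p under 0.05. At least 2-fold changes made up 1419 rises (13.7%) and 1244 falls (12%), and these 4 shares are the background for all counts of genes below. The median change over all tested genes was 0.04, and the quartiles of the changes were -0.47 and 0.60. Falls reached further than rises, since 95 genes fell and 32 rose 16-fold or more. These counts use the changes as measured, with levels under 4 not replaced by 4. Without the kit block, 2320 genes were higher and 2067 lower. Unless stated otherwise, adjusted p-values are from limma over all 10370 genes, and pairs of levels give the Express array first.

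**Figure D1:**
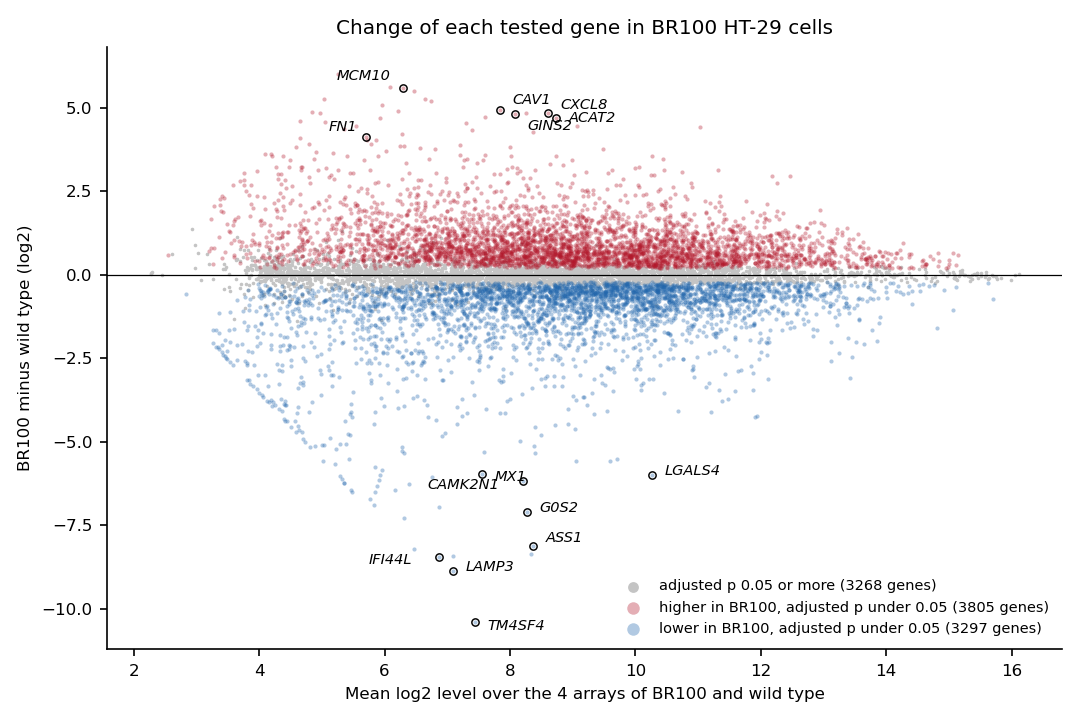
Change of every tested gene (BR100 minus wild type, log2) against its mean log2 level on the 4 arrays compared. Red and blue points are the 3805 genes higher and 3297 genes lower at an adjusted p under 0.05, grey points are the other genes, and circles mark named genes. The falls of TM4SF4, LAMP3, IFI44L and ASS1 lie beyond every rise.

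Among genes expressed on all 4 arrays, the largest fall was that of ASS1, the argininosuccinate synthase that makes arginine from citrulline. ASS1 stood at 12.53 and 12.33 in wild type and at 4.49 and 4.15 in BR100, a 277-fold fall (log2 change -8.11 ± 0.27 SE, adjusted p = 0.000133). G0S2, an inhibitor of the triglyceride lipase of fat droplets, was at 11.91 and 11.73 in wild type and at 5.04 and 4.41 in BR100 (-7.09 ± 0.13, adjusted p = 6.99e-05). LGALS4, a galectin of the intestinal epithelium, was at 13.48 and 13.04 against 7.63 and 6.90 (-5.99 ± 0.10, adjusted p = 6.99e-05). In each of these genes both BR100 arrays lay far below both wild type arrays. Further large falls were those of CAMK2N1 (-6.16), an inhibitor of calmodulin-dependent kinase II, the monocarboxylate transporter family member SLC16A4 (-5.57), the stress and differentiation gene NDRG1 (-5.56), the growth factor receptor adaptor GRB10 (-4.98) and the chloride channel ANO1 (-4.80). The fall of MYRF was -5.11 with the probe set used, but the change was 0.28 (adjusted p = 0.0683) once shared and cross-hybridizing probe sets were left out.

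The largest rise among such genes was that of CAV1, the coat protein of caveolae. CAV1 was at 5.74 and 5.00 in wild type and at 10.33 and 10.29 in BR100, a 30.7-fold rise (4.94 ± 0.21, adjusted p = 0.000184). CXCL8, the neutrophil chemokine interleukin-8, rose from 6.47 and 5.89 to 11.20 and 10.88 (4.86 ± 0.10, adjusted p = 6.99e-05). PIR, an iron-binding nuclear protein, rose from 6.01 and 5.66 to 10.71 and 10.63 (4.84 ± 0.09, adjusted p = 6.99e-05). For all 3 genes the levels of BR100 and wild type did not overlap. The other leading rises included the replication genes GINS2 and RNASEH2A, the cholesterol pathway enzyme ACAT2, the kinase anchor AKAP12 (4.47) and the actin-binding calponin CNN3 (3.86).

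BR100 reached 4 on both arrays in 128 genes that were near background in wild type, and 209 genes went the other way. Of the 128, 111 were also on in BR200 and 13 were near background there. Of the 209, 149 were near background in BR200 as well and 36 were on. The DNA replication factor MCM10 was near background at 3.36 and 3.62 in wild type and stood at 8.95 and 9.23 in BR100, at least 34.1-fold higher (adjusted p = 6.61e-05). The anion transporter SLC26A9 was at least 29.8-fold higher, the actin-associated FILIP1L at least 25.3-fold, the phosphatase regulator PHACTR3 at least 19.1-fold, the tyrosine phosphatase PTPRR at least 12.7-fold and the matrix glycoprotein fibronectin, FN1, at least 13.6-fold. TM4SF4, a tetraspanin-like membrane protein, was at 12.60 and 12.66 in wild type and at 2.25 and 2.25 in BR100, at least 396-fold lower (adjusted p = 2.87e-05). The lysosomal protein LAMP3 was at least 185-fold lower, the netrin receptor UNC5B at least 158-fold, the ER chaperone CLGN at least 95.5-fold, the bile acid hormone FGF19 at least 81.1-fold and the protease inhibitor SLPI at least 45.8-fold. Secreted proteins and proteins of the cell surface were among both sets.

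**Figure D2:**
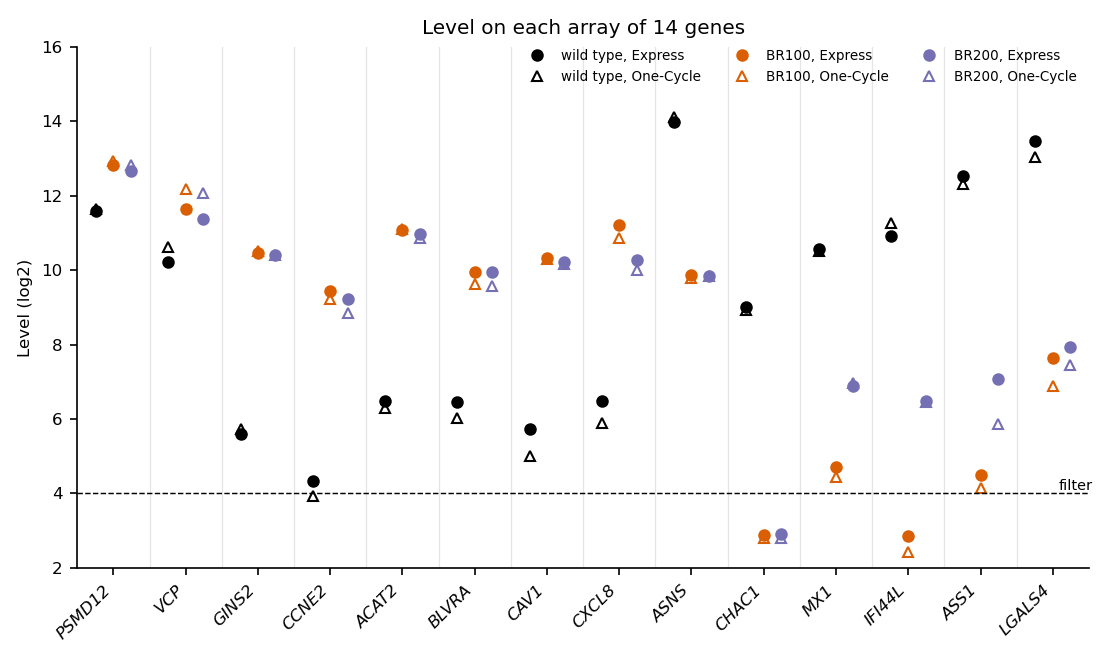
Log2 level of 14 genes on each of the 6 arrays: wild type (black), BR100 (orange) and BR200 (violet), with filled circles for the Express kit, open triangles for One-Cycle and a dashed line at the filter level of 4. For each gene the BR100 and wild type arrays do not overlap, and MX1, IFI44L and ASS1 are lower in BR100 than in BR200.

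Proteasome genes were higher in BR100. Of 13 tested genes of the 20S core 12 rose, with a median change of 1.005, and of 16 genes of the 19S regulator, which unfolds substrates, 14 rose and 1 fell, with a median of 0.85. The drug's target PSMB5 stood at 10.76 and 10.38 in wild type and 12.45 and 12.07 in BR100, a 3.22-fold rise (1.69 ± 0.07, adjusted p = 0.000166). BR100 levels of PSMB5 lay above wild type levels under both kits, and BR200 was at 12.42 and 12.11. The alpha ring gene PSMA3 rose by 1.55 and the ATPase gene PSMC1 by 1.45, whereas PSMB1 (-0.00) and PSMD8 (-0.09) did not pass the test. PSMB2 changed by 1.46, or by 0.34 (adjusted p = 0.103) without shared probe sets, and PSMD11 by 1.20, or by -0.12 (adjusted p = 0.263). PSMD12 changed by 1.27, or by -0.16 for its other probe set, which did not pass the test. PSMA7 (0.45) and PSMD3 (0.36) lost their calls without the kit block (adjusted p = 0.0884 and 0.0529). Both also lost them with no filter (adjusted p = 0.154 and 0.0908). PSMA7 did so too with only the 4 arrays compared (adjusted p = 0.0508). Its call was also lost when either BR100 array or the One-Cycle array of wild type was left out. That of PSMD3 was lost without the Express array of BR100 or of wild type. NFE2L1, the transcription factor known for driving proteasome genes when the proteasome is inhibited, fell by 1.82 ± 0.08 (adjusted p = 0.00019). TGACNNNGC, a core of the antioxidant response element, was on either strand in 1 of 10 promoters of the 20S list (10%) and in 5 of 18 of the 19S list (27.8%), against 13.6% of all promoters (RefSeq windows from 250 bases before to 50 after a gene's start). Factors that tag and deliver substrates were split: of 19 genes for polyubiquitin, ubiquitin activation and delivery, 8 rose and 6 fell, with a median of 0.17, or -0.09 without shared or cross-hybridizing probe sets. The segregase VCP was at 10.21 and 10.61 against 11.65 and 12.19 (1.51 ± 0.10, adjusted p = 0.000445), and its cofactor UFD1 (1.16) and the activating enzyme UBA1 (1.31) rose, UBA1 not without the kit block (adjusted p = 0.364). The cofactors NPLOC4 (-0.00) and FAF1 (0.05) did not pass the test, and the arsenite-inducible proteasome adaptor ZFAND2A fell by 2.74.

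Cytosolic and mitochondrial chaperones were mostly higher and endoplasmic reticulum folding genes mostly lower. Of 25 genes for HSP90, HSP60 and their partners 14 rose and 4 fell (median 0.59), led by the HSP70 cofactor BAG2 (1.47), the immunophilins FKBP4 (1.36) and FKBP5 (1.15) and the mitochondrial co-chaperonin HSPE1 (1.26). The dimmer probe set of BAG2 changed by -0.135 and did not pass the test. All 7 tested genes of the CCT chaperonin, which folds actin and tubulin, rose by 0.25 to 0.96. CCT2 lost its call when any 1 of the 6 arrays was left out (adjusted p = 0.0525 to 0.155), CCT5 without the One-Cycle array of BR100 or of wild type. Without the kit block CCT2, CCT5 and CCT6A did not pass the test (adjusted p = 0.309, 0.111 and 0.12). CCT5 changed by -0.01 with probe sets averaged and CCT6A by -0.20 (adjusted p = 0.0691) without shared probe sets. In the endoplasmic reticulum 18 of 29 genes fell and 4 rose (median -0.47). DNAJB9, a co-chaperone induced by unfolded proteins, was at 11.78 and 11.93 in wild type and 9.32 and 9.4 in BR100 (-2.50 ± 0.07, adjusted p = 9.24e-05). DNAJB11 fell by 2.02, HYOU1 by 1.74, the receptor subunit SRPRB by 1.48, the chaperone HSPA5 by 0.86 and the transcription factor XBP1 by 1.34. HYOU1 lost its call without the kit block (adjusted p = 0.0563). For the disulfide isomerase PDIA6 the probe set used did not pass the test (0.09), and the other 3 rose by 0.43 to 0.68.

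Genes of the integrated stress response, in which phosphorylation of the initiation factor eIF2 raises translation of ATF4, were lower. Of 25 genes 19 fell and 5 rose, with a median of -1.43. ATF4 itself was at 13.80 and 13.84 in wild type and 12.56 and 12.56 in BR100 (-1.26 ± 0.07, adjusted p = 0.000308). CHAC1, which breaks down glutathione, stood at 9.02 and 8.92 in wild type and near background at 2.87 and 2.81 in BR100, at least 31.4-fold lower (adjusted p = 3.98e-05). NUPR1 was at least 11.7-fold lower, and SESN2, an inhibitor of mTORC1, fell by 4.62 ± 0.15. CHAC1 was near background in BR200 too, at 2.91 and 2.81.

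Amino acid supply followed a like pattern. Of 16 genes for amino acid and one-carbon synthesis 10 fell and 5 rose (median -1.25), and of 20 transporter genes 12 fell and 3 rose (median -1.42). ASNS, the asparagine synthetase, was at 13.99 and 14.13 against 9.88 and 9.78, an 18.8-fold fall (-4.23 ± 0.09, adjusted p = 6.99e-05). CTH, which makes cysteine, fell by 3.65, the neutral amino acid transporter SLC1A4 by 4.5 and the large neutral transporter SLC7A5 by 3.45. The cytosolic one-carbon enzyme MTHFD1 rose from 9.12 and 9.26 to 12.17 and 12.40 (3.09 ± 0.09, adjusted p = 0.0001), whereas the mitochondrial MTHFD2, named after its values were seen, was at 14.23 and 14.45 in wild type and 12.40 and 12.49 in BR100 (-1.90, adjusted p = 0.000172).

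Aminoacyl-tRNA synthetases, which charge tRNA with amino acids, differed by compartment. Of 17 tested genes whose enzymes serve the cytosol 11 fell and 4 rose (median -0.99), and of 15 mitochondrial ones 13 rose (median 0.75). WARS1 was at 12.75 and 12.88 in wild type and at 10.32 and 10.47 in BR100 (-2.42 ± 0.07, adjusted p = 9.77e-05). CARS1 (-2.02), GARS1 (-2.01) and SARS1 (-1.96) followed, RARS1 (0.20) and HARS1 (0.08) did not pass the test, and both subunits of the phenylalanine enzyme, FARSA and FARSB, were among the 4 that rose, with VARS1 and KARS1. Mitochondrial FARS2 rose from 7.26 and 6.76 to 9.62 and 9.52, a 5.89-fold rise (2.56 ± 0.11, adjusted p = 0.0002). LARS2 rose by 1.63 and SARS2 by 1.21, whereas PARS2 (0.15) and VARS2 (0.06) did not pass the test.

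**Figure D3:**
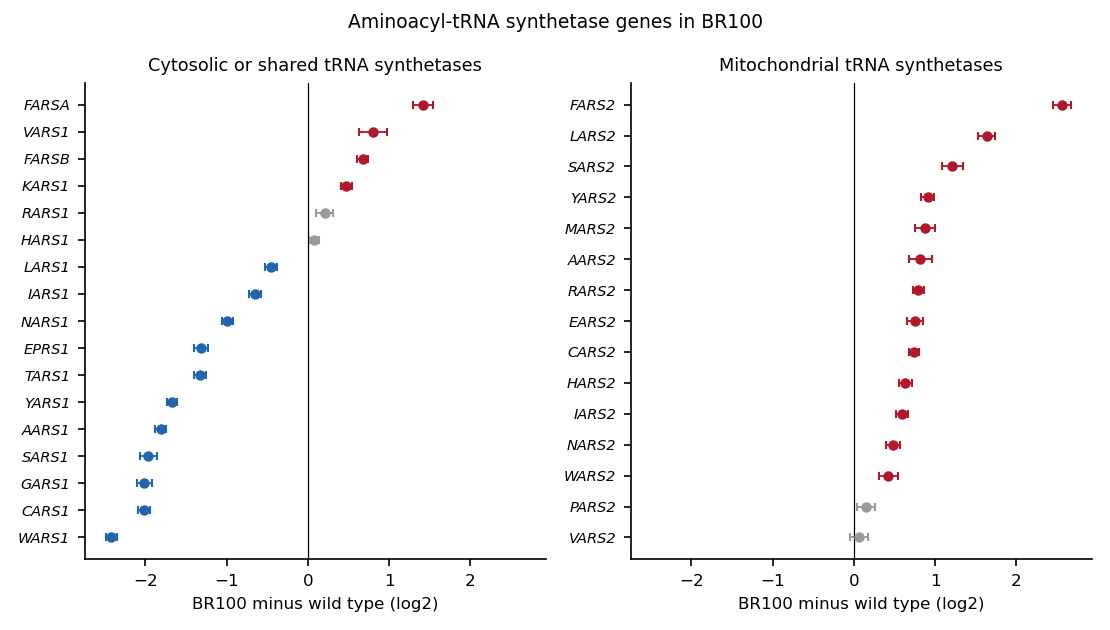
Change of each tested aminoacyl-tRNA synthetase gene (BR100 minus wild type, log2, with the standard error as bars), cytosolic or shared enzymes at the left and mitochondrial ones at the right. Red genes rose, blue genes fell and grey genes did not pass an adjusted p of 0.05; 11 of 17 fell at the left and 13 of 15 rose at the right.

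The promoters of CHAC1 and ASNS are shown because both genes fell steeply and both windows hold the letters TGATGNAA, a core of the sites that C/EBP and ATF factors bind. Windows run from 250 bases before to 50 after the RefSeq start (GRCh38.p14), on the gene's strand, and capitals mark each match on either strand. CHAC1 lies at chr15:40953221-40953520 (+), with the match 209 bases before the start, and ASNS at chr7:97872359-97872658 (-), with the match 68 bases before it.
CHAC1: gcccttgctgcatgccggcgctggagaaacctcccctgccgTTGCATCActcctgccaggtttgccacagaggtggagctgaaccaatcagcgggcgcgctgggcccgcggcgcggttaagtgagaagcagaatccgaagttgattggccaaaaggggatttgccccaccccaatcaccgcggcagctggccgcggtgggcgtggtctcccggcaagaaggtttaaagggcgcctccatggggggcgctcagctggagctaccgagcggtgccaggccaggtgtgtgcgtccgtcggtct
ASNS: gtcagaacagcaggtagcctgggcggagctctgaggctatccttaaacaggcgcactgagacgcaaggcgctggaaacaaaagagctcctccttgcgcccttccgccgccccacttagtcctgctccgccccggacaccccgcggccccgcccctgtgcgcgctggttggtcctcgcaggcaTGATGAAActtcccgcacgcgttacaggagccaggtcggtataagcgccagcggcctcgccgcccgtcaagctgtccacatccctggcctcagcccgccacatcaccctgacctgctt
On both strands this motif was found in 4 of 16 promoters of the amino acid synthesis list (25%) and in 3 of 22 of the stress response list (13.6%), against 3.67% of all 27305 promoters of this length.

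Interferon-induced genes, which encode antiviral proteins, were lower. Of 47 tested antiviral effector genes 46 fell, 44 of them at least 2-fold, and 1 rose. Their median change was -2.81, or -2.57 with near-background levels set to 4. MX1, a GTPase that blocks viral replication, was at 10.56 and 10.52 in wild type and at 4.71 and 4.44 in BR100 (-5.97 ± 0.11, adjusted p = 6.99e-05). IFI44L went from 10.93 and 11.28 to near background at 2.87 and 2.41, at least 137-fold lower (adjusted p = 7.93e-05). XAF1, an antagonist of an apoptosis inhibitor, was at least 62.0-fold lower, MX2 at least 32.7-fold and EPSTI1 at least 22.2-fold. TRIM21 (-0.73) and GBP3 (-0.90) changed least among the genes that fell. The 1 gene that rose was GBP2, a guanylate-binding GTPase named after its values were seen. GBP2 stood at 7.35 and 7.31 in wild type and 8.42 and 8.35 in BR100 (1.06, adjusted p = 0.000389), while its relative GBP1 fell by 2.35.

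Genes that detect nucleic acids and carry the interferon signal changed less uniformly. Of 26 tested 16 fell and 3 rose, with a median of -0.53. RIGI, a sensor of viral RNA, was at 11.13 and 11.03 against 7.91 and 7.78 (-3.23 ± 0.07, adjusted p = 7.04e-05). The RNA receptor TLR3 fell by 3.11, and the transcription factors IRF7 by 3.11 and IRF9 by 3.01, whereas STAT3 (0.10) and PIAS1 (-0.05, or -0.62 for 1 of its other probe sets) did not pass the test. CGAS, the sensor of cytosolic DNA and likewise named after its values were seen, rose from 4.21 and 5.28 to 6.19 and 6.71 (1.70, adjusted p = 0.000958).

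IFI44L and EPSTI1 promoters are shown for the interferon list, with matches to GAAANNGAA, a core of the interferon-stimulated response element, in capitals. IFI44L lies at chr1:78620198-78620497 (+), with matches 164 and 73 bases before the start, and EPSTI1 at chr13:42992192-42992491 (-), with a match 50 bases before it.
IFI44L: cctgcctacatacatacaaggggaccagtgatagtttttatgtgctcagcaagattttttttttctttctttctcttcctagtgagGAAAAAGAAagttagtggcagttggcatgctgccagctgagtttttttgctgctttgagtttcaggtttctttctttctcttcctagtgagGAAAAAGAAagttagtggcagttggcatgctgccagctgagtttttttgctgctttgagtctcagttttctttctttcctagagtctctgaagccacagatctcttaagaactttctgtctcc
EPSTI1: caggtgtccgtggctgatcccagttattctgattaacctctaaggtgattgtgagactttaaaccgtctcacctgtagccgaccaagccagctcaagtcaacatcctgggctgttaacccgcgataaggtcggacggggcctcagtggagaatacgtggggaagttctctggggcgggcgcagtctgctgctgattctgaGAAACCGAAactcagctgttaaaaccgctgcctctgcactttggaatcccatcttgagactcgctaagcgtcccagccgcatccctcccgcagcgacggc
The motif was present in 26 of the 39 effector genes with a promoter in the RefSeq table (66.7%), in 8.29% of all promoters, and in 7.42% of the promoters of genes that fell and 6.13% of those of genes that rose. A match describes these letters and was not tested as a binding site.

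Genes that copy DNA rose. Of 28 genes that mark and open replication origins 25 rose (median 2.13), and of 37 polymerase, clamp and fork genes 34 rose and 1 fell (median 2.27). GINS2, a subunit of the replicative helicase, was at 5.59 and 5.73 in wild type and at 10.46 and 10.51 in BR100, a 28.4-fold rise (4.83 ± 0.07, adjusted p = 6.61e-05). MCM5 rose from 5.00 and 5.04 to 9.51 and 9.66 (4.56 ± 0.07, adjusted p = 6.99e-05), and its partner CDC45 by 3.90. ORC1, of the origin recognition complex, was at least 13.7-fold higher. POLE2, a subunit of the leading strand polymerase, was at 3.95 and 4.05 against 9.24 and 9.31, with BR100 far above wild type on both arrays (5.27 ± 0.07, adjusted p = 6.61e-05). RNASEH2A, which removes ribonucleotides from DNA, rose by 4.74, the fork protein WDHD1 was at least 13.4-fold higher and the checkpoint mediator CLSPN at least 6.76-fold higher. POLE3 (0.34) did not pass the test. For ORC4 (0.10), MCM9 (-0.11) and the clamp loader subunit RFC5 (-0.01) the probe set used did not pass it either, but other probe sets rose: those of RFC5 by 2.81 and 3.52 (adjusted p = 0.000343 and 0.000209, limma over all probe sets), 1 of ORC4 by 0.50 and 1 of MCM9 by 0.99 (adjusted p = 0.0455). The other probe set of CLSPN was at 0.21 and did not pass.

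The POLE2 and GINS2 promoters are shown with capitals at TTTNNCGC, a core of the sites of E2F factors. POLE2 lies at chr14:49688165-49688464 (-), with matches 81 and 5 bases before the start, and GINS2 at chr16:85688905-85689204 (-), with a match 31 bases before it.
POLE2: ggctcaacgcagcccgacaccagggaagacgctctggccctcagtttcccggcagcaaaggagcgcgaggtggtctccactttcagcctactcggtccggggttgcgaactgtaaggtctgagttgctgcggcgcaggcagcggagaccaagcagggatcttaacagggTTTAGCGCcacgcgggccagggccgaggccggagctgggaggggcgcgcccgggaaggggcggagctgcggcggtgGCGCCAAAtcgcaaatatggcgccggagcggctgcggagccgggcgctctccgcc
GINS2: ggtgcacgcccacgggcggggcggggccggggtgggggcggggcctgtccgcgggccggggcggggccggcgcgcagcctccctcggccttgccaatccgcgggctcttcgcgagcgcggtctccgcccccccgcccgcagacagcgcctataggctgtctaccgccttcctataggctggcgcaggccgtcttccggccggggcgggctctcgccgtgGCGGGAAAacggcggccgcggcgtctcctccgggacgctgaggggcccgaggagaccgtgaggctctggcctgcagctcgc
The motif was in 13 of 24 promoters of the origin list (54.2%) and 14 of 32 of the fork list (43.8%), against 6.9% of all promoters. Among tested genes it was in 11% of promoters, in 12.3% for genes that rose and 9.27% for genes that fell. On the gene's own strand alone it was in 5 promoters of the origin list and 6 of the fork list, against 985 of all 27305.

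Genes that supply nucleotides and repair DNA rose as well. Of 26 nucleotide synthesis genes 21 rose and 3 fell (median 1.34). TYMS, the thymidylate synthase inhibited by fluorouracil, was at 8.97 and 8.66 in wild type and 13.28 and 13.20 in BR100, a 21.4-fold rise (4.42 ± 0.09, adjusted p = 6.99e-05). RRM1, the large subunit of ribonucleotide reductase, rose by 3.15 and thymidine kinase TK1 by 2.53, whereas the probe set used for GMPS (-0.02) did not pass the test and its other probe sets fell by 0.85 and 1.67. In homologous recombination and the Fanconi pathway 22 of 26 genes rose and 1 fell (median 1.73). The exonuclease EXO1 rose by 4.21, the helicases BRIP1 by 3.71 and BLM by 3.37 and the BRCA1 partner BARD1 by 2.91. The 1 fall, of NBN (-0.31), turned to 0.12 with probe sets averaged and lost its call without any 1 array of BR100 or wild type (adjusted p = 0.0534 to 0.134) and without the kit block (adjusted p = 0.187). In mismatch and excision repair 16 of 25 genes rose and 3 fell (median 0.57). DDB2, which finds ultraviolet damage, was at 3.91 and 3.78 against 7.97 and 7.81, at least 14.8-fold higher (adjusted p = 8.08e-05), and MSH6 (2.69), PARP1 (2.64) and the uracil glycosylase UNG (2.23) rose.

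Regulators of entry into S phase moved in both directions and kinetochore genes mostly upwards. Of 32 cyclin, inhibitor, RB and E2F genes 17 rose and 4 fell (median 0.37). CCNE2, a cyclin that drives entry into S phase, was at 4.34 and 3.94 in wild type and 9.44 and 9.24 in BR100, a 36.8-fold rise (5.20 ± 0.08, adjusted p = 6.99e-05). CCNE1 rose by 3.45, the RB relative RBL1 by 2.74 and the phosphatase CDC25A by 2.43. Cyclins of the D type did not pass the test, with CCND1 at -0.04 and CCND3 at -0.01, and the inhibitor CDKN1A fell by 2.05 ± 0.08 (adjusted p = 0.000159). Of 38 kinetochore and spindle checkpoint genes 31 rose and 1 fell (median 1.10), with CENPH (3.15), CENPO (3.04), SPC24 (2.69) and CENPM (2.61) in front. The other probe set of CENPO rose by 0.90. SKA1 and MIS12 (0.02 each) did not pass the test, and the proliferation antigen MKI67 rose by 1.43. Other probe sets of MKI67 changed by 0.34, 0.51 and 1.33, and the one at 0.51 did not pass the test.

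Sterol synthesis genes rose. Of 19 tested 17 rose and 1 fell against wild type (median 1.58). In the direct comparison with BR200, 12 of the 19 were higher in BR100, where 4.23% of all tested genes were, but 0 genes of any kind passed that test in limma once an array of either clone was left out (1953 to 2135 genes at an unadjusted p under 0.05). HMGCS1, which makes the substrate of the statin target, was at 8.0 and 7.77 in wild type, 10.58 and 10.25 in BR100 and 10.01 and 9.82 in BR200 (2.53 ± 0.07 against wild type, adjusted p = 0.0001). INSIG1, the sterol sensor that holds back the SREBP factors, rose by 2.52 against wild type and lay 0.82 above BR200 (adjusted p = 0.0167), and FDPS rose by 2.74. IDI1 rose by 2.22, but its change without shared probe sets was 0.02 (adjusted p = 0.938). TCACNCCAC, a core of the sterol regulatory element, was in 1 of 21 promoters of this list (4.76%), against 1.15% of all. Fatty acid genes were split, with 7 of 17 up and 5 down (median 0.11, or -0.04 without the One-Cycle array of BR100 and -0.01 without the Express array of wild type). The synthase FASN rose by 1.88 and the activating enzyme ACSL5 fell by 1.14. For the desaturase SCD the probe set used, near 14 on all arrays of wild type and BR100, did not pass the test (-0.05), and the other 3 probe sets rose by 0.84, 1.18 and 1.69.

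Mitochondrial ribosome, citric acid cycle and nucleolar genes rose by smaller amounts but in large numbers. Of 75 mitochondrial ribosomal protein genes 62 rose and 2 fell (median 0.87), with MRPL9 (1.70), MRPS27 (1.65) and MRPL37 (1.61) in front. Of 24 citric acid cycle genes 19 rose and 2 fell (median 0.81). IDH2, the mitochondrial isocitrate dehydrogenase, was at 8.56 and 8.59 in wild type and 10.22 and 10.48 in BR100 (1.78 ± 0.09, adjusted p = 0.00028), DLST rose by 1.64 and MDH1 by 1.50. DLST lost its call without the kit block (adjusted p = 0.0702). PCK2, the mitochondrial carboxykinase counted with them, fell from 11.66 and 11.49 to 8.58 and 8.33 (-3.12 ± 0.07, adjusted p = 7.56e-05). Of 36 nucleolar genes 28 rose and 1 fell (median 0.49), among them UTP20 (2.04), NPM3 (1.46), WDR12 (1.20) and MYC (0.62). UTP20 and NPM3 lost their calls without the kit block (adjusted p = 0.0876 and 0.469). Of 55 nucleoporin and transport receptor genes 35 rose and 5 fell (median 0.51). NUP37 rose by 2.38 and NUP107 by 1.58, and the tRNA exporter XPOT was among those that fell (-1.65).

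Redox, haem and detoxifying enzymes differed gene by gene. Of 39 glutathione, thioredoxin and antioxidant genes 27 rose and 7 fell (median 0.66). GSTA4, which conjugates lipid aldehydes, was at 5.72 and 5.90 in wild type and 9.45 and 9.34 in BR100 (3.58 ± 0.10, adjusted p = 9.77e-05). TXNIP, which inhibits thioredoxin, fell from 13.24 and 13.41 to 9.47 and 9.77 (-3.71 ± 0.07, adjusted p = 6.99e-05), and GPX8, a peroxidase of the endoplasmic reticulum, fell by 4.82. Haem oxygenase HMOX1 was at 4.97 and 3.92 in wild type and 5.19 and 3.92 in BR100, and did not pass the test. Of 29 iron and haem genes 15 rose and 8 fell (median 0.37). The biliverdin reductase BLVRA, which acts after haem oxygenase, rose by 3.55, and the haem synthesis enzymes CPOX by 1.64 and UROD by 1.32. Of 27 aldehyde, steroid and xenobiotic enzymes 11 rose and 10 fell (median 0.05). ALDH1A3 was at 7.57 and 7.79 against 10.70 and 10.80 (3.07 ± 0.09, adjusted p = 0.000114). ALDH2, the mitochondrial acetaldehyde dehydrogenase, went from 10.88 and 10.48 to 6.24 and 6.0 (-4.56 ± 0.08, adjusted p = 6.99e-05). Lysosomal genes rose in 11 of 34 cases and fell in 14 (median -0.12, and of the other sign without the Express array of wild type), with the galactosidase GLA up by 2.17 and the regulator TFEB changed by -1.99 (adjusted p = 0.0964 without the kit block). The drug exporter ABCB1 was at 2.234 on all 6 arrays and was set aside.

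Growth factor receptors and the genes that report on their signal were lower. Of 36 tested receptor tyrosine kinase and ligand genes 25 fell and 6 rose (median -0.90). EGFR was at 11.14 and 10.85 in wild type and 9.62 and 9.21 in BR100, a 2.98-fold fall (-1.58 ± 0.08, adjusted p = 0.000249). The EGFR ligand HBEGF fell by 3.67 and the receptor FGFR3 by 3.15, whereas NRG1 (0.18) and EPHA1 (-0.05) did not pass the test. Of 31 MAPK feedback and immediate early genes 19 fell and 3 rose (median -0.82). ETV5, an ETS factor induced by ERK, was at 9.56 and 9.67 against 5.78 and 5.44 (-4.0 ± 0.15, adjusted p = 0.000162). The phosphatase DUSP8 (-2.08) and the AP-1 genes FOSB (-2.13) and FOSL2 (-2.05) fell, while FOSL1 (0.06) and IER3 (0.00) did not pass the test.

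In the TGF-beta, BMP and activin list 16 of 28 genes fell and 4 rose (median -0.36). GDF15, a stress-induced hormone of this family, fell from 13.47 and 13.23 to 10.62 and 10.22 (-2.93 ± 0.09, adjusted p = 0.000118), while the co-receptor TGFBR3 rose by 2.18 and TGFBR1 (0.01) and SMAD2 (-0.01, or -0.77 for 1 of its other probe sets) did not pass the test. In the Notch and Hedgehog list 12 of 19 fell and 3 rose (median -0.34), and the Notch ligands moved apart, with JAG1 down by 2.05 and JAG2 up by 1.54. YAP/TEAD targets and caveolar genes fell in 13 of 26 cases and rose in 7 (median -0.28). CCN2, a matricellular target of YAP, was near background in BR100 at 2.94 on both arrays, against 6.97 and 6.53 in wild type, at least 6.72-fold lower (adjusted p = 0.000146). Caveolar CAV1 rose as given above, and CAVIN1, which shapes caveolae together with it, did not pass the test (-0.06, or 0.42 for 1 of its other probe sets).

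Genes of the epithelial surface were lower or not past the test in the main. Of the 11 tested colon epithelial markers 6 fell and 1 rose (median -0.55). The adhesion molecules CEACAM6 fell from 11.74 and 11.43 to 7.80 and 7.23 (-4.07 ± 0.10, adjusted p = 7.69e-05) and CEACAM5 by 2.17, and the brush border villin VIL1 fell by 1.85. EPCAM (-0.24), KRT18 (-0.01) and KRT19 (-0.05) did not pass the test. Of 29 tight junction and cadherin genes 16 fell and 3 rose (median -0.34). CLDN1 was at 10.52 and 10.45 against 7.09 and 7.24 (-3.32 ± 0.08, adjusted p = 8.08e-05), CLDN7 fell by 1.52, and the plaque proteins JUP (0.08) and PKP3 (0.02) did not pass the test. Of 23 integrin, laminin and collagen genes 11 fell and 2 rose (median -0.22), with LAMB3 (-3.29) and ITGA3 (-1.72) among the falls. The other probe set of LAMC1 went against the one used, at 0.85 against -1.22.

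Genes of secreted proteases, their inhibitors and the calcium-binding S100 proteins fell more often than they rose. Of 31 protease and inhibitor genes 17 fell and 6 rose (median -0.75). The urokinase receptor PLAUR was at 10.90 and 10.94 in wild type and 6.99 and 6.85 in BR100 (-4.0 ± 0.08, adjusted p = 6.99e-05), the kallikrein KLK11 was at least 30.0-fold lower and SERPINE2 fell by 3.17. Of 11 S100 genes 7 fell (median -0.36), led by S100A14 (-2.72) and S100A4 (-2.30), and S100A10 (0.00, or -1.27 for its dimmer probe set) did not pass the test. Mucins and goblet cell genes fell in 6 of 15 cases and rose in 5, where 31.8% of all tested genes fell and 36.7% rose. The median of this list was -0.04, and of the other sign with quantile normalization or without the Express array of BR100. MUC13 was at least 11.8-fold lower and the trefoil factor TFF1 at least 14.2-fold lower, while the glycosyltransferase GALNT6 was at least 3.32-fold higher. Of 10 keratins 4 fell and 1 rose, and both tested cancer-testis genes, MAGEA6 and MAGEA12, were near background in BR100.

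Intestinal transcription factors fell in 14 of 23 cases and rose in 5 (median -0.50). KLF4, which restrains proliferation in the villus, was at 12.07 and 12.38 in wild type, 8.70 and 8.67 in BR100 and 10.72 and 10.77 in BR200 (-3.54 ± 0.11 against wild type, adjusted p = 0.000107). HNF4G fell by 2.44. ELF5, an ETS factor of glandular epithelia, rose from 3.29 and 4.15 to 9.19 and 9.23 (5.50 ± 0.24, adjusted p = 0.000195), and FOXA2 (0.14) and RXRA (-0.04) did not pass the test. All 12 tested HOX genes lay between -0.58 and 0.54, with 4 rises and 2 falls. HOXB4, HOXB5 and HOXC4 lost their calls without the kit block (adjusted p = 0.11, 0.0853 and 0.143). With no filter they lost them too (adjusted p = 0.137, 0.197 and 0.107). HOXB5 also did with only the 4 arrays compared (adjusted p = 0.0518). Calls were lost for HOXB4 and HOXB5 when either wild type array was left out, and for HOXC4 when either BR100 array was. HOXB4 also lost its call without the One-Cycle array of BR100, and HOXB5 without the Express array. The median of the list was 0.07, or -0.10 without shared or cross-hybridizing probe sets.

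Chemokines moved in opposite directions. Of 28 chemokine and cytokine genes 18 fell and 7 rose (median -0.79, or -0.65 with near-background levels set to 4). Beside CXCL8, CXCL6 was at least 9.69-fold higher in BR100, at 7.56 and 7.00 against 2.35 and 2.45 (adjusted p = 0.000267). CXCL2, a chemokine for the same receptor, fell from 8.07 and 7.74 to 5.41 and 5.25 (-2.57 ± 0.08, adjusted p = 0.000105). The receptor subunit IL20RB was at least 41.6-fold lower, and TNFSF10, the death ligand TRAIL, fell by 2.48. Among 9 complement and acute phase genes 4 fell and 2 rose. CD55, which protects cells from complement, fell by 3.48, and the iron-scavenging LCN2 from 14.91 and 15.04 to 11.96 and 11.81 (-3.09 ± 0.11, adjusted p = 0.000151), while C5 was at least 3.61-fold higher.

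Chromatin and splicing genes showed no common direction. Of 69 chromatin regulators 22 rose and 30 fell (median -0.16). HELLS, a remodeller needed for DNA methylation, was at 6.97 and 6.95 in wild type and 10.63 and 10.40 in BR100 (3.55 ± 0.08, adjusted p = 7.65e-05), and the methyltransferase DNMT1 rose by 2.42. Within the Polycomb complex that methylates histone H3, EED rose by 1.86 and SUZ12 (-0.02) did not pass the test. Of 24 histone genes 12 fell and 7 rose (median -0.38), with H2BC4 (-2.82), H2AC6 (-2.74) and H2BC21 (-2.68) in front; their sequences are nearly alike, so single histone genes are uncertain on this array. Of 39 SR protein and hnRNP genes 20 rose and 9 fell (median 0.24, and of the other sign without shared probe sets). The splicing factors ESRP1 (-1.44), which sets epithelial isoforms, and MBNL2 (-1.47) fell, and PTBP2 rose by 1.01.

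**Figure D4:**
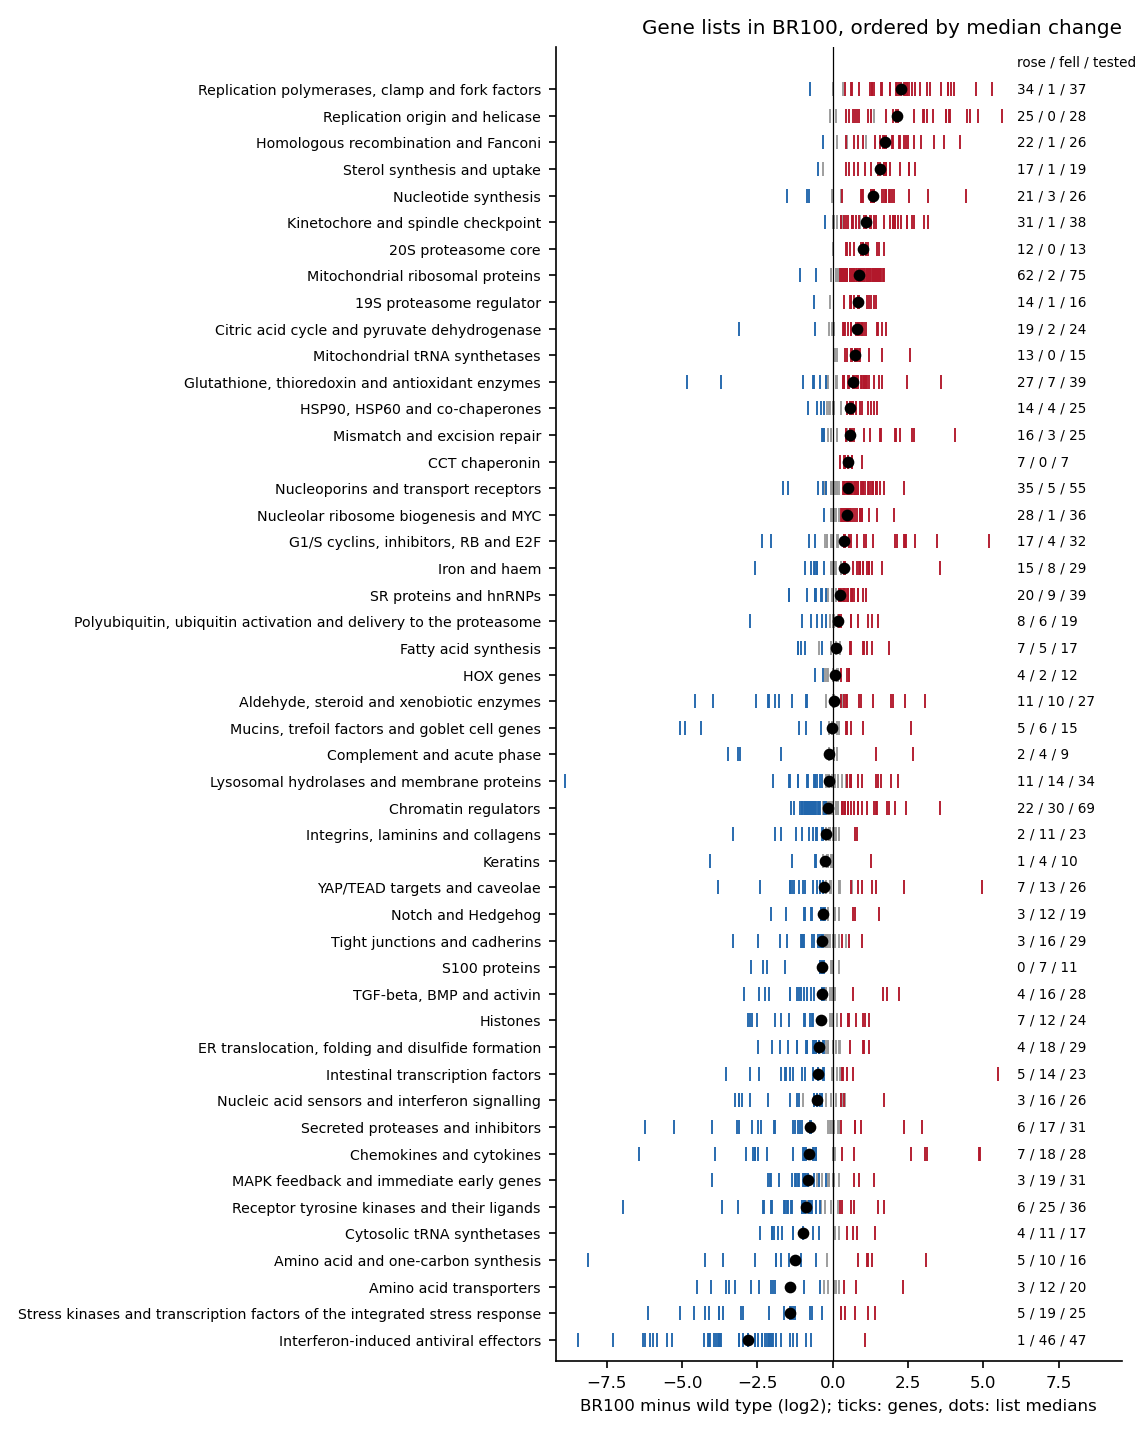
Changes in BR100 against wild type for the gene lists with at least 7 tested genes, ordered by median (black dot); ticks are genes that rose (red), fell (blue) or did not pass an adjusted p of 0.05 (grey), with counts at the right. Replication lists lie at the top, with medians of 2.27 and 2.13, and the interferon effectors at the bottom, with a median of -2.81.

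Genes on chromosome 14 rose in a larger share than those of any other chromosome from 1 to 22 and X, where 26.8% to 41.4% rose. Of its 349 tested genes 230 rose (65.9%) and 45 fell (12.9%), and their median change was 0.63. The medians of the other chromosomes lay between -0.12 and 0.16. With the probe sets of each gene averaged, the chromosome 14 median was 0.55. BR200 had a chromosome 14 median of 0.67 against the same wild type arrays, and the direct difference between the clones there had a median of -0.02. Several genes named above lie on this chromosome, namely PSMB5, PSMA3 and PSMC1 of the proteasome, MTHFD1, POLE2, WDHD1, DLST and JAG2, all of which rose. WARS1, PCK2 and IRF9 also lie there and fell. Without their chromosome 14 members the median of the 20S list was 0.95 and that of the 19S list 0.79.

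**Figure D5:**
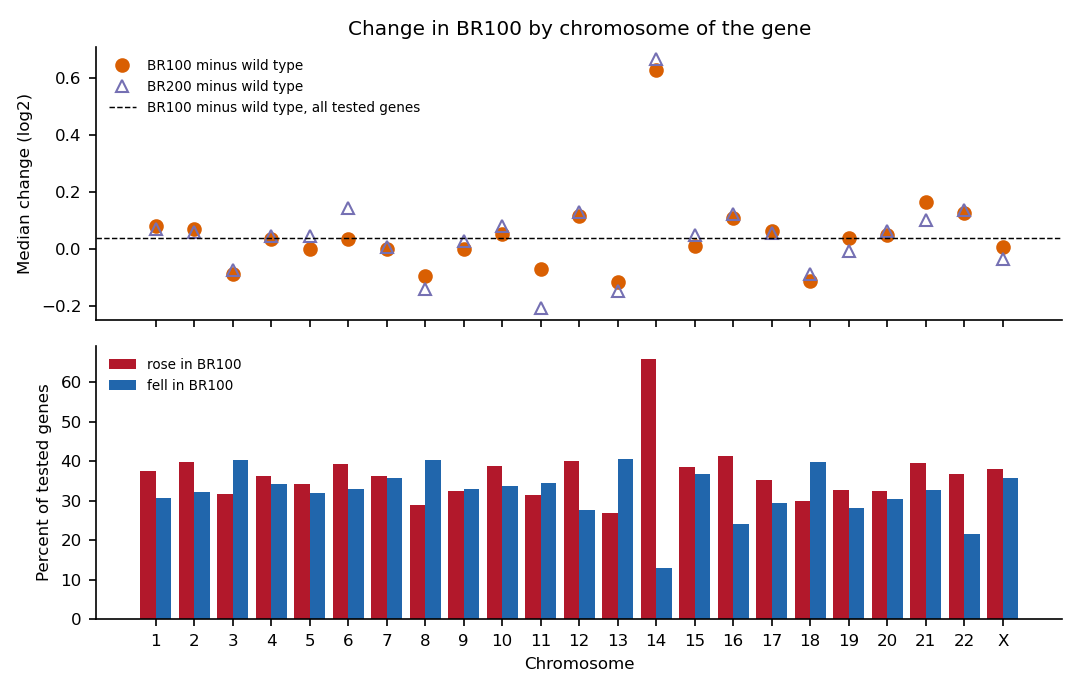
Upper panel, median change of the tested genes of each chromosome in BR100 (circles) and BR200 (triangles) against the same wild type arrays, with the all-gene median of BR100 dashed; lower panel, percent of genes that rose (red) and fell (blue) in BR100. Chromosome 14 has a BR100 median of 0.63, with 65.9% of its genes higher.

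Probe sets of 1 gene did not always move together. Of 4905 genes with several probe sets at a mean of 4 or more, 416 (8.48%) had probe sets called in opposite directions, 18 of them at least 2-fold each way. PSMA5 is such a case, with 1.01 for the probe set used and -2.04 for the other. The splicing factor SRSF1 had probe sets from 1.15 to -1.32, TRA2A from 1.11 to -1.16, and the oxidoreductase ERO1A from 1.03 to -1.0. For these genes the direction depends on the probe set, and PSMA5, TRA2A and ERO1A stand among the rises in the counts above through the probe set used. For SRSF1 the probe set used did not pass the test (0.21).

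Against BR200, the other clone, far fewer genes differed. BR100 was higher in 439 genes (4.23%) and lower in 663 (6.39%), and the median absolute difference was 0.16, against 0.55 between BR100 and wild type. These counts rest on the spread shared over 6 arrays. Leaving out the Express or the One-Cycle array of BR100, or either array of BR200, left 0 genes called in limma, with 2135, 1953, 2011 and 2041 genes at an unadjusted p under 0.05. Leaving out either wild type array, which fits the 4 arrays of the clones alone, left 5 genes higher and 56 lower. Interferon effectors were prominent among the lower genes: 37 of 47 were lower in BR100 than in BR200 (median difference -1.08). MX1 was at 6.89 and 6.98 in BR200, between the levels of wild type and BR100 (-2.36, adjusted p = 0.00478).

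The stress factor ATF3 showed the largest difference between the clones among genes expressed in both. ATF3 was at 9.42 and 9.28 in wild type, 5.61 and 4.63 in BR100 and 9.78 and 9.58 in BR200, so that BR100 alone was low (-4.56 ± 0.24 against BR200, adjusted p = 0.00525). CXCL2 was likewise low in BR100 alone (-2.78, adjusted p = 0.00283), with BR200 at 8.23 and 7.98. ALDH2 lay 2.54 below BR200, which was itself below wild type. In the other direction, IQGAP2, a scaffold of the actin skeleton, was at 9.31 and 9.46 in wild type, 8.86 and 8.93 in BR100 and 6.46 and 6.07 in BR200 (2.63 ± 0.15, adjusted p = 0.00635). The membrane-shaping GTPase DNM3 (2.56), the pyruvate dehydrogenase kinase PDK3 (1.77) and the C-type lectin CLEC3A (1.83) were higher in BR100 than in BR200, and ONECUT2, a hepatic and intestinal factor, was 2.33 higher though it had fallen by 1.70 against wild type.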

How the data were processed

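The authors deposited log2 values of Affymetrix arrays, processed with GCRMA per the submitters' processing notes, which give no version. Background correction, quantile normalization and probe summary are the usual steps of that method, and no file header records their settings. Values ran from 2.234, where about 35% of probe sets of each array lay, to 16.29, and differences near that floor are compressed. All 6 array columns were mapped to samples by their labels, with 0 left over. Gene names came from the platform annotation: 41097 probe sets named 1 gene, 1801 several and 11777 none, and 41043 matched RefSeq (GRCh38.p14).

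For each gene the probe set with the highest mean over 6 arrays was used, and genes at 4 or more on at least 2 arrays were kept. Variant and labelling kit were fitted over all 6 arrays with limma 3.58.1 in R 4.3.3 (2 residual and 2.33 prior degrees of freedom, median standard error 0.0876), and p-values were adjusted by Benjamini-Hochberg. The kits pair arrays by design: the differences between kits correlated across genes at 0.762 for wild type and BR100. The number of arrays limits the precision.

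Named genes were the 15 largest rises and falls expressed in both variants, 12 each way to or from near background, up to 4 called and 2 least changed members of each list, 8 each way against BR200, genes named whatever their values, and genes whose promoters are printed. MTHFD2, GBP2 and CGAS fall outside this rule. Members and lists were chosen with earlier results of these data known, so no list count is independent support. Alternatives tried were no filter and a filter at 6, probe sets averaged or without shared ones, quantile normalization, median centring, an intensity trend in the prior, no kit block, only the 4 arrays compared, each kit alone and each array left out.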

Additional observations from a re-analysis of the deposited data

Results flagged for a closer look

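In 5 of the genes that differed most between the clones, BR100 and BR200 lay on opposite sides of wild type, each past an adjusted p of 0.05 in limma, and the difference between the clones was tested directly. GBP1, a guanylate-binding GTPase, was 3.12 log2 units lower in BR100 than in BR200 (adjusted p = 0.00283). SYT13, a synaptotagmin, differed by -3.1 on the same scale, with levels of 5.71 and 5.61 in BR100, 7.18 and 6.69 in wild type and 8.90 and 8.62 in BR200. TNFSF10, the ligand TRAIL, differed by -3.07, FXYD5, a regulator of the sodium pump, by -2.93 and TPPP3, a tubulin-binding protein, by -2.62. For TPPP3 the change against wild type lost its call without the One-Cycle array of BR100. All 5 differences from BR200 lost their call when any array of either clone was left out.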

How the results depend on the processing

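Without the kit block, which pairs the arrays, the genes higher and lower in BR100 than in wild type fell from 3805 and 3297 to 2320 and 2067. The counts against BR200 moved far more. From 439 higher and 663 lower they went to 4 and 11 with no filter on low levels, 17 and 95 without the block, and 5 and 56 with only the 4 arrays of the clones. Higher genes numbered 726 with the filter at 6, 816 with an intensity trend in the prior and 276 without shared probe sets. With 1 array left out the higher genes ranged from 0 to 5 and the lower from 0 to 56. These fits differ from the main one in the arrays, genes, probe sets, kit block or prior used, and the cause of the shifts was not tested. All other alternatives kept the 6 counts within 1.5 times. Without the kit block 28 of the named genes lost their call. Directions turned for 6 named genes. Without shared or cross-hybridizing probe sets MYRF was 0.281, PSMD11 -0.117 and CCT6A -0.198, and with probe sets averaged CCT5 was -0.013, NBN 0.122 and TRA2A -0.266, by the construction of these alternatives, which read other probe sets. List medians kept their sign under 10 of the 15 alternatives, and at most 4 of the 49 turned under any of the others. Near the floor of the array signal no change in level can be measured.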
